A study of Mus musculus with 3 samples.

Results

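The ATP-binding cassette (ABC) family was described in mouse leptomeningeal cells, the cells of the thin inner membranes around the brain. Members were all rows of the count table whose gene symbol is Abc, a subfamily letter from a to g, a number and at most 1 further letter. There were 50 such genes among 46983 gene rows. The data were 3 bulk RNA sequencing libraries, numbered 1 to 3 as in the labels, all from the pia enriched fraction of vehicle-treated mice, taken by microdissection and dissociation and then sorted by flow cytometry. From each, 2 ng of total RNA was amplified with the SMART-Seq kit, which does not mark strand. The agent for which the vehicle served as control was not given in the sources used here, nor were strain, genotype, sex or age. All libraries formed 1 group, so members were compared with each other and between libraries. No label said whether the libraries came from separate mice, so the spread between them may be technical.

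ABC proteins use ATP to move a substrate across a membrane. Subfamilies A and G mostly carry sterols, phospholipids and other lipids. Subfamilies B and C hold the drug and organic anion pumps and transporters of mitochondria and lysosomes, and subfamily D serves peroxisomes and lysosomes. Subfamilies E and F keep the ATP-binding part but have no membrane domain and act on ribosomes and translation. In the coverings and vessels of the brain the family is known above all for Abcg2 and P-glycoprotein, which keep drugs out of the tissue.

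The libraries held 21002860, 28704952 and 25338616 gene counts. The labelled tissue was checked against marker genes. The 6 fibroblast markers summed to 23467 to 29100 counts per 1000000 (CPM, on library sizes scaled by the TMM method). The 8 endothelial markers summed to 78.5 to 93.9 CPM and the 6 arachnoid barrier markers to 86.4 to 93.3 CPM. Library 1 was low in several lists of other cell types: the 9 macrophage and microglia markers summed to 12.0, 254 and 735 CPM in libraries 1, 2 and 3, and the 7 choroid plexus markers to 143, 1802 and 2756 CPM. The 6 lymphocyte markers summed to 2.68, 53.8 and 62.1 CPM, whereas the 6 erythroid markers were highest in library 1 at 819, 205 and 340 CPM. No marker on these lists was at 0 in all libraries. Msln of the arachnoid list and Ms4a1 of the lymphocyte list were at 0 in library 1 only. Cd3g of the lymphocyte list had 0, 2 and 0 counts in libraries 1, 2 and 3. Cd3e of that list had 12, 0 and 7 counts. Library 1 also differed with base composition: over 14375 genes, the difference of log2(CPM + 1) between library 1 and the mean of the others had a Spearman correlation of 0.608 with GC content.

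Most of the family was detected. Of the 50 members, 42 had a count in at least 1 library, where 53.4% of all gene rows and 78.7% of protein-coding genes did. Of the members, 35 passed the filter on low counts, which asks for the equivalent of 10 counts in every library. Over all gene rows, many of them non-coding, 30.7% passed, and over protein-coding genes 60.4%. The family took 0.154%, 0.204% and 0.208% of gene counts in libraries 1, 2 and 3 (0.188% ± 0.030, SD, n = 3). By mean level, 28 members reached 10 CPM and 6 reached 100 CPM. The median member past the filter lay at 4.85 in log2(CPM + 1), and the median of all genes past the filter at 4.18.

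Levels of different genes were compared as TPM, counts divided by annotated exon length and scaled to a sum of 1000000 in each library. The 10 highest members took 73.2% ± 1.29 of the summed TPM of the family (SD, n = 3). By role, the cytosolic proteins of subfamilies E and F took 33.1% ± 2.34, the organelle transporters 23.7% ± 1.46, the drug and anion pumps 21.7% ± 1.67, the lipid and sterol transporters 20.8% ± 2.54 and the channel subunits 0.750% ± 0.163. The cytosolic proteins held the largest share in each library, at 35.5%, 30.9% and 32.9%. The other 3 large roles were not separated, since their library values overlapped. The order depended on the division by length: as shares of counts, lipid transporters took 28.9% and cytosolic proteins 20.0%.

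**Figure D1:**
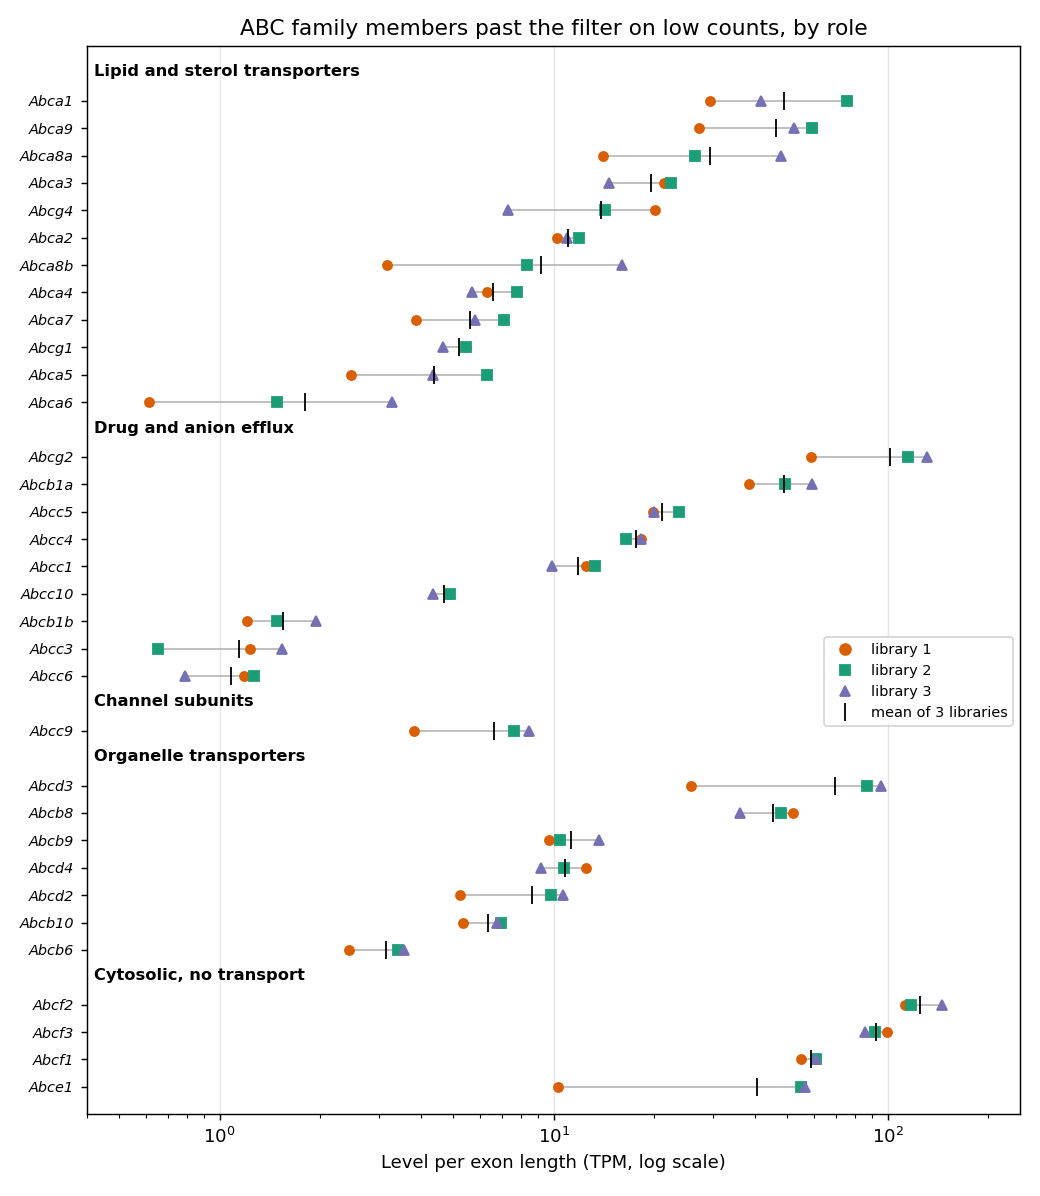
Level per exon length (TPM, log scale) of 33 members past the filter, grouped by role, with 1 symbol per library, the mean as a black tick and a grey line over the range. Abcf2 and Abcg2 are highest, and Abce1 spreads widely, with library 1 at 10.3 TPM and the others at 55.1 and 56.7 TPM.

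From Abcf2 at 125 ± 17.7 TPM down to Abcc6 at 1.08 ± 0.256 TPM, the 35 members past the filter spanned a 116-fold range. Between neighbours in this order nothing was resolved: in 34 of 34 pairs the ranges of the libraries overlapped, and the order of the pair was the same in all 3 libraries for 6. Among the 10 highest, after Abcf2, were Abcg2 (102 ± 38.0 TPM), Abcf3 (92.2 ± 6.90 TPM), Abcd3 (69.4 ± 38.1 TPM), Abcf1 (59.1 ± 3.39 TPM), Abcb1a (49.1 ± 10.5 TPM), Abca1 (48.9 ± 23.8 TPM), Abca9 (46.4 ± 17.0 TPM) and Abcb8 (45.4 ± 8.32 TPM).

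Among the lipid transporters, Abca1, which hands cholesterol and phospholipid to apolipoproteins, had the highest mean level per exon length. In library 3 Abca9 lay above it, at 52.6 against 41.9 TPM. Abca1 (ENSMUSG00000015243.4, chromosome 4, 53030787 to 53159895 on GRCm38) was at 111, 232 and 137 CPM in libraries 1, 2 and 3. Library 2 was the high library, and the other pair lay closer together. Abcg1, which exports sterol to lipoprotein particles, was at 14.6, 11.9 and 10.8 CPM. Per exon length Abca1 was 5.39, 13.8 and 8.97 times Abcg1. Abcg4, a sterol exporter close to Abcg1, was at 38.3, 22.1 and 12.1 CPM and above Abcg1 in 3 of 3 libraries per exon length. Library 1 was the highest for Abcg4 and library 3 the lowest.

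Transporters known from other organs were also counted. Abca3, which loads surfactant lipid into storage bodies of the lung, was at 73.6, 62.5 and 43.6 CPM. Abca2, an endosomal and lysosomal transporter of myelinating cells, was even across libraries at 31.3, 29.6 and 29.1 CPM. Schwann cell markers moved otherwise, with a sum over 6 genes of 3116, 2710 and 4586 CPM; their part in the level of Abca2 was not tested. Abca4, the retinoid transporter of photoreceptors, was at 27.7, 27.8 and 21.7 CPM. Abca7, a phospholipid exporter, was at 9.60, 14.2 and 12.5 CPM. The order of the libraries differed between these genes.

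Abca8b, Abca8a, Abca9, Abca6 and Abca5 lie side by side on chromosome 11, from 109932190 to 110337716 on GRCm38, all on the minus strand. They descend from a common ancestor, and 4 of the RefSeq starts have a sequence in the reference used here. The stretch from base 250 to base 51 before each start is shown because these neighbours differ in level and in sequence type. Capitals mark CG dinucleotides, and each line runs 5′ to 3′ on the gene's strand, from RefSeq on GRCm38.p6.
Abca8b, chr11:109995896-109996095, - strand: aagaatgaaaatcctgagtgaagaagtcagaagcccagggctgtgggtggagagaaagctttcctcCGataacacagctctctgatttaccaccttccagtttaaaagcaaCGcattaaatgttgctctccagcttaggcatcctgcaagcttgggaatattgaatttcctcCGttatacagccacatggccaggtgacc
Abca8a, chr11:110095988-110096187, - strand: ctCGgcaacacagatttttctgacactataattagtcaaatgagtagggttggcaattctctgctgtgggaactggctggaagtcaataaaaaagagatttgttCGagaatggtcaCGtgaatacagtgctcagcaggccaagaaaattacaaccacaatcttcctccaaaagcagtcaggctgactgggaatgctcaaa
Abca9, chr11:110168204-110168403, - strand: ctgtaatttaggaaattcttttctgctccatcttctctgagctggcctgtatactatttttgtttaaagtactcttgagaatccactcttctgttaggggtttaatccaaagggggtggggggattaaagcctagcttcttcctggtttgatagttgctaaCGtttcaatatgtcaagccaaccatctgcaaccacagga
Abca5, chr11:110337767-110337966, - strand: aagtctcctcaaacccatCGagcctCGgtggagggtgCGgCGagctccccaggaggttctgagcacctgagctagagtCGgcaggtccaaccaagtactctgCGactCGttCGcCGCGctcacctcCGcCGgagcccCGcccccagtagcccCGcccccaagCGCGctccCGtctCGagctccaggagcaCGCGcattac

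The window before Abca5 holds 20 CG dinucleotides and 67.5% GC, whereas those before Abca8b, Abca8a and Abca9 hold 3, 3 and 1, with 46.5%, 43.0% and 41.5% GC. The median over 32851 RefSeq windows of this kind was 4. The CG-rich gene was not the highest of the cluster. Abca9 was at 80.1, 142 and 134 CPM, Abca8a at 32.3, 49.3 and 95.1 CPM and Abca8b at 8.59, 18.4 and 37.7 CPM. Abca5, a lysosomal and endosomal transporter, was at 10.4, 21.4 and 15.7 CPM, and Abca6 at 1.21, 2.39 and 5.63 CPM. All 5 were lowest in library 1, though Abca5 lay above the other libraries there once the trends with base composition described further on were removed. Abca8a, Abca8b and Abca6 were highest in library 3, Abca9 and Abca5 in library 2.

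Within the cluster the order Abca9, Abca8a, Abca8b held in every library. Per exon length Abca9 was 1.93, 2.24 and 1.10 times Abca8a, and Abca8a was 4.46, 3.18 and 2.99 times Abca8b. The exact permutation test (two-sided, over sign flips of the log ratio) gave p = 0.25 for both pairs, the smallest value that 3 libraries allow. Reads could be told apart for most of their length: of the 50-base words in its transcripts, Abca8a shared 1.64% with other genes and Abca8b 1.42%, all with each other. Abca8b had an adjusted p of 0.459 in the test for differences between libraries (edgeR goodness of fit, Benjamini-Hochberg over 14409 genes).

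**Figure D2:**
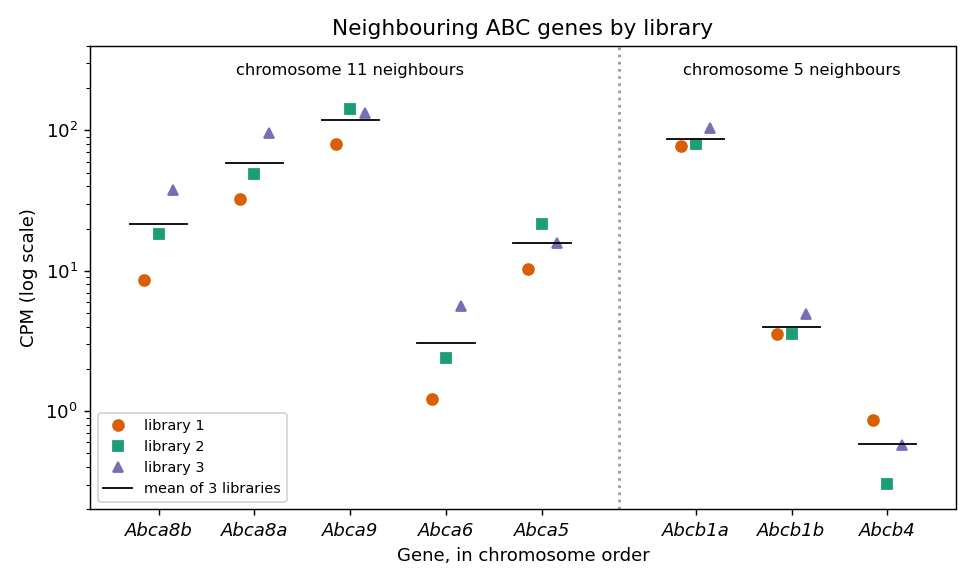
CPM (log scale) of neighbouring ABC genes in chromosome order, with 1 symbol per library and the mean as a bar. On chromosome 11 library 1 is lowest for each of the 5 genes (for Abca5 not after removal of the base composition trends), and on chromosome 5 Abcb1a lies far above Abcb1b and Abcb4 in each library.

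Of the drug and anion pumps, Abcg2 and Abcb1a were the most abundant. Abcg2 (ENSMUSG00000029802.13, chromosome 6, 58584523 to 58695676), a pump for drugs, urate and porphyrins, was at 176, 279 and 339 CPM, the highest member in CPM in each library. Libraries 2 and 3 were the high ones, an order that turned after removal of the base composition trends. Abcb1a (ENSMUSG00000040584.8, chromosome 5, 8660077 to 8748575) was at 77.1, 80.2 and 103 CPM. It encodes P-glycoprotein, which the mouse carries as the pair Abcb1a and Abcb1b. Per exon length Abcg2 was 1.53, 2.34 and 2.21 times Abcb1a.

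Both pumps are known from brain endothelium and from the arachnoid barrier, so they were set beside markers of those cells. Cldn5, the tight junction gene of brain endothelium, was at 1.16, 2.22 and 3.20 CPM, and Abcg2 exceeded it per exon length by 26.3, 21.9 and 18.4 times. Against Cdh5, the endothelial junction gene with the highest level on that list, the ratio was 2.79, 4.26 and 8.59. Cdh5 was at 32.6, 33.8 and 20.4 CPM. Slco1a4, an anion carrier of brain endothelium, was at 0.556, 7.12 and 11.0 CPM. Of all genes past the filter 40.4% were lowest in library 1. Of the 8 endothelial markers 4 were lowest there. Egfl7 was highest in library 1 at 27.3, 9.88 and 20.4 CPM, as was Kdr at 10.8, 4.13 and 8.68 CPM. Of the 6 arachnoid barrier markers 4 were lowest there as well, among them Cdh1 at 8.23, 15.6 and 17.3 CPM, while Krt19 was highest there at 38.5, 19.8 and 13.6 CPM. The part of these cells in the level of Abcg2 was not tested. In bulk RNA, fewer cells of a type and less RNA per cell cannot be told apart. Markers and partners named singly here and below, other than the highest and lowest of a partner list, were chosen after their values were seen.

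Abcb1b, the second P-glycoprotein gene, was at 3.54, 3.53 and 4.94 CPM. Per exon length Abcb1a exceeded it by 31.8, 33.1 and 30.5 times, a ratio that was steady across libraries. The transcripts of Abcb1a shared 17.6% of their 50-base words with other genes, nearly all with Abcb1b, and those of Abcb1b shared 11.6%. Reads from shared stretches could have been dropped or split by the counting, so the ratio is uncertain to that extent. Abcb4, the neighbouring phospholipid transporter of bile, was at 0.859, 0.302 and 0.578 CPM, below the filter.

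Other drug and anion pumps belong to subfamily C. Abcc5, which exports cyclic nucleotides, was at 77.3, 75.1 and 67.9 CPM. Abcc1, a pump for glutathione conjugates, was at 68.9, 59.4 and 47.2 CPM. Abcc4, which exports prostaglandins and cyclic nucleotides, was at 42.8, 31.2 and 37.0 CPM. Per exon length these 3 lay at 21.2 ± 2.18, 11.9 ± 1.77 and 17.7 ± 1.07 TPM, and Abcc5 exceeded Abcc1 by 1.59, 1.79 and 2.03 times. Abcc10, a pump for lipophilic drugs, was at 12.2, 9.95 and 9.45 CPM.

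At the low end, Abcc3, a pump for glucuronides and bile salts, was at 2.58, 1.11 and 2.78 CPM. Abcc6, whose loss in the liver leads to mineral deposits in connective tissue, was at 2.48, 2.15 and 1.43 CPM. Abcc2, the apical anion pump of liver and kidney, was at 0.303, 1.08 and 0.270 CPM and did not pass the filter. No count was found for Abcb5.

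The channel subunits were represented by Abcc9. It encodes the sulfonylurea receptor of vascular ATP-sensitive potassium channels, and was at 11.7, 18.9 and 22.4 CPM. Its pore partner Kcnj8 was at 16.0, 16.7 and 28.0 CPM, and per exon length Kcnj8 was 4.48, 2.91 and 4.10 times Abcc9. Of the 8 mural markers 3 were lowest in library 1, where 40.4% of all genes past the filter were. Rgs5 was among these 3, at 69.2, 273 and 372 CPM, and Pdgfrb was highest in library 1, at 712, 542 and 536 CPM. Together the 8 mural markers summed to 3493, 2987 and 5237 CPM. The part of mural cells in the level of Abcc9 was not tested. Abcc8, the receptor subunit of pancreatic beta cells and neurons, was uneven at 2.48, 0.302 and 3.35 CPM, with 49, 9 and 87 counts, and did not pass the filter. Its pore partner Kcnj11 was at 0, 0.370 and 0.0771 CPM.

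Among the organelle members, the peroxisomal Abcd3 had the highest mean level per exon length. In library 1 it lay below the mitochondrial Abcb8, at 25.7 against 52.3 TPM. Abcd3 (ENSMUSG00000028127.10, chromosome 3, 121758774 to 121815302), which imports branched-chain and dicarboxylic acids, was at 62.0, 170 and 200 CPM. Library 1 lay well below the others. Abcd2, a peroxisomal importer of fatty acids, was at 11.4, 17.4 and 20.1 CPM. Per exon length Abcd3 exceeded Abcd2 by 4.90, 8.83 and 8.95 times (two-sided exact permutation test, p = 0.25).

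The longest transcript of Abcd3 had a GC content of 44.5%. With GC content and exon length fitted as trends and taken out, library 1 differed from the mean of the others by -0.98 for Abcd3, against -1.57 before (log2 CPM with 0.5 counts added). Abcd3 did not pass the test for differences between libraries, with an adjusted p of 0.5024 (edgeR goodness of fit). Of the 13 genes listed for peroxisomal import and beta-oxidation, 12 passed the filter, led by Hsd17b4 at 142 TPM, and Acox2 was the lowest at 0.797 TPM.

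Of the mitochondrial members, Abcb8 (45.4 ± 8.32 TPM) lay above Abcb10 (6.35 ± 0.867 TPM) per exon length in every library. Abcb8, which is linked to iron export from mitochondria, was at 90.6, 67.3 and 54.3 CPM. Abcb10, a mitochondrial protein needed for haem synthesis, was at 8.44, 8.87 and 9.22 CPM. Abcb8 was highest in library 1, and Abcb10 was even across libraries. All 10 listed genes of iron-sulfur and haem assembly passed the filter. Of them 0 were lowest in library 1, where 40.4% of all genes past the filter were. This count was taken before the trends with base composition described further on were removed. In that list Nfs1 was highest at 51.7 TPM and Glrx5 lowest at 2.21 TPM.

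Lysosomal and porphyrin-linked members were also counted. Abcd4, which releases cobalamin from lysosomes together with Lmbrd1, was at 36.7, 25.4 and 23.2 CPM, and Lmbrd1 exceeded it per exon length by 4.36, 9.07 and 10.1 times. All 7 listed cobalamin genes passed the filter, from Tcn2 at 316 TPM to Mtr at 4.60 TPM. Abcb9, a lysosomal peptide transporter, was at 19.9, 17.4 and 24.3 CPM. Abcb6, a porphyrin-linked transporter, was at 4.75, 5.41 and 6.02 CPM. In GENCODE M21, 55.2% of the exon bases of Abcb6 also belong to Gm29253 on the same strand, which held 1, 1 and 0 counts in the table. Reads in such a stretch cannot be given to a single gene, so the level of Abcb6 may be too low.

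Of the 4 cytosolic members, 3 were even across libraries and Abce1 was not. Abcf2 (chromosome 5, 24565345 to 24577467) was at 106, 89.4 and 118 CPM. Abcf3 was at 129, 96.5 and 96.7 CPM, and Abcf1, which takes part in translation initiation, at 89.1, 80.0 and 85.3 CPM. Abce1 (chromosome 8, 79683462 to 79711740), which splits ribosomes after termination, was at 22.7, 98.2 and 108 CPM, so that library 1 lay far below the others. All 8 listed genes of ribosome recycling and translation control passed the filter. Of them 6 were lowest in library 1, where 40.4% of all genes past the filter were. The ribosome rescue factor Pelo was not among these 6, at 12.1, 5.41 and 8.60 CPM. The count of 6 was taken before the trends with base composition described further on were removed. After removal, library 1 differed from the mean of the others by 0.72 for Eif2s2, -0.06 for Hbs1l and -0.15 for Eif2s1. The difference was -0.43 for Etf1, -0.72 for Eif2ak4 and -1.45 for Gspt1 (log2 CPM with 0.5 counts added). In that list Etf1 was highest at 69.3 TPM and Eif2ak4 lowest at 3.95 TPM.

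Differences between libraries were tested across the whole table. At an adjusted p threshold of 0.05, 0 of the 35 members were called (edgeR goodness of fit at the trended dispersion, Benjamini-Hochberg), where 0.437% of 14409 genes were. At an unadjusted p under 0.05 there were 4 members, against 7.04% of all genes. Among them were Abce1 (adjusted p = 0.1691), Abca8b (0.459) and Abcd3 (0.5024) in the same edgeR test. All 4 were lowest in library 1. A gene that missed the threshold is not shown to be equal between libraries. No other tool was run, since a model with 1 group has no contrast. The median range over libraries was 0.64 in log2(CPM + 1) for members and 0.67 for all genes.

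Most members lowest in library 1 had a low GC content. Of the 35 members, 16 were lowest in library 1, 14 highest there and 5 in between; 40.4% of all genes past the filter were lowest in library 1. Across the 35 members, the difference of library 1 from the others had a Spearman correlation of 0.71 with GC content and -0.16 with exon length, over genes that share the same libraries. Over 14375 genes past the filter these correlations were 0.608 and -0.30, so the dependence was not particular to the family. Of 13 members under 47% GC, 12 were lowest in library 1 and 0 highest, with a median difference of -0.80. The other 4 members lowest there were Abca1 at 47.5% GC, Abcb10 at 53.7%, Abcb6 at 53.8% and Abca7 at 58.9%. Of 11 members at 54% GC or more, 1 was lowest and 8 were highest, with a median of 0.33. The limits of these classes were set after the values were seen. The share of all genes highest in library 1, and the shares of all genes within each class, were not counted.

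Removing the trends left part of the pattern. By the edgeR test with these trends as offsets, 0 of the 35 members were called, where 0.756% of all genes were. On the scale of log2 CPM with 0.5 counts added, the median of the 13 members under 47% GC was -0.36 after removal against -0.82 before, and 15 of the 35 members were lowest in library 1, where 35.2% of all genes were. Abce1 differed by -1.05 after removal against -2.18 before, and Abca8b by -0.79 against -1.61. The difference changed sign in 8 of the 35 members: Abca5 (-0.82 to 0.43), Abcg2 (-0.80 to 0.49), Abcd2 (-0.71 to 0.23), Abcb1a (-0.24 to 0.26), Abcb1b (-0.23 to 0.25), Abca2 (0.09 to -0.18), Abcf1 (0.11 to -0.18) and Abcf2 (0.04 to -0.28). The direction of library 1 in these 8 therefore depended on the treatment of base composition. The macrophage, choroid plexus and lymphocyte markers were also low in library 1 and the erythroid markers high, and their part in these differences was not tested.

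**Figure D3:**
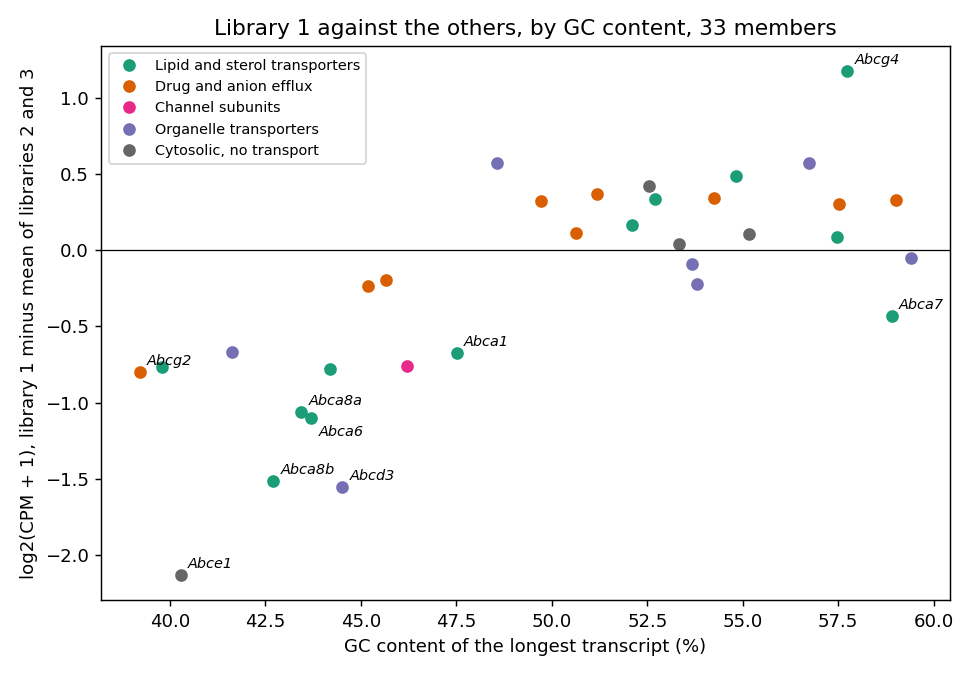
Difference of log2(CPM + 1) between library 1 and the mean of libraries 2 and 3 (vertical axis) against GC content of the longest transcript in percent (horizontal axis), 1 point for each of 33 members past the filter, coloured by role. Points under 47% GC all lie below 0, with Abce1 at -2.13, and most points at 54% GC or more lie above 0.

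Genes that work with the transporters were given from lists of known partners. Beside the counts past the filter on these lists, here and above, 60.4% of all protein-coding genes passed. All 13 sterol regulators passed the filter, from Nr1h2, a sterol-sensing receptor that activates Abca1 and Abcg1, at 95.2 TPM to Insig1 at 11.7 TPM. All 12 lipid acceptors and carriers passed, with Apod highest at 2908 TPM and Apoa1 lowest at 1.87 TPM. Apoe, a main lipid carrier of the brain, was at 870 TPM. Of 11 genes of xenobiotic response and conjugation 9 passed. Gstm1, a glutathione transferase, was highest at 878 TPM, and Nr1i2, the pregnane receptor, lowest at 0.0296 TPM. Over these partner lists 0 genes were called variable between libraries by the same edgeR test, where 0.437% of all genes were.

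Family members named by other symbols fell outside the rule. Tap2 and Tap1, which form the peptide transporter of antigen presentation, were at 228 and 30.9 TPM, so Tap2 exceeded the mean of any of the 50 members. Tap2 was at 426, 235 and 201 CPM, highest in library 1. No count was found for Cftr.

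**Figure D4:**
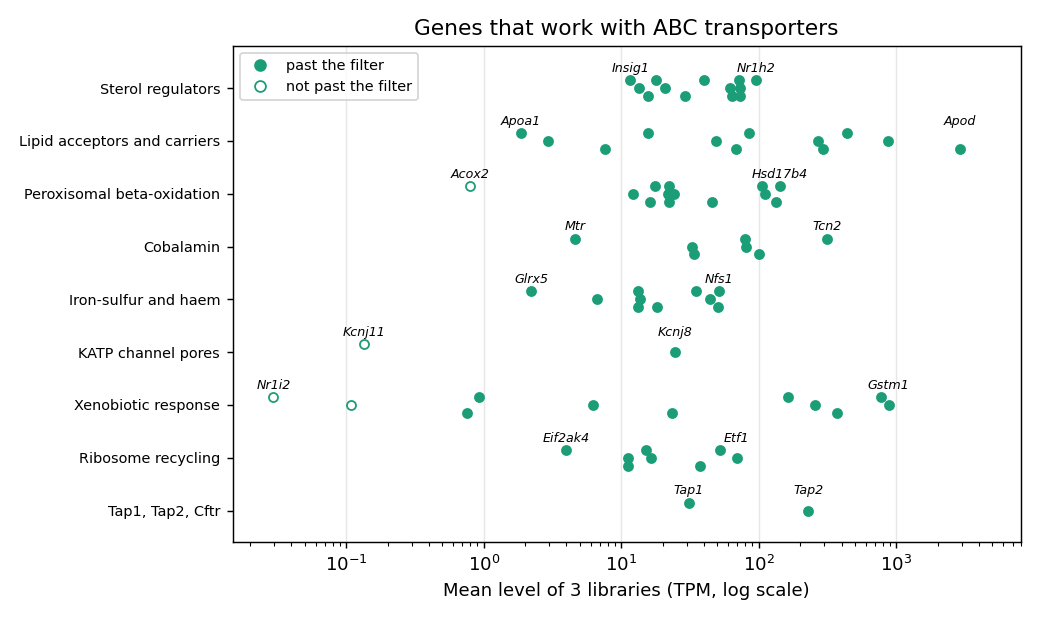
Mean TPM over 3 libraries (log scale) of the genes listed as partners, 1 row per list, with the highest and lowest labelled; filled points passed the filter on low counts. Cftr, with no count, is not drawn, and Apod at 2908 TPM is the highest point.

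The remaining members were at or near the limit of detection. With counts but below the filter were Abcc8, Abcg3, Abcc2, Abcb4, Abca17, Abcc12 and Abca13, with mean levels from 0.140 to 2.04 CPM. Abca17 was detected mainly in library 2, with 0, 17 and 1 counts. No count was found in any library for 8 members: Abca12, Abca14, Abca15, Abca16, Abcb5, Abcb11, Abcg5 and Abcg8. A count of 0 allows up to 3 counts, which is 0.152, 0.101 and 0.116 CPM in libraries 1, 2 and 3, for counting error only. Among these 8 are Abcb11, the bile salt pump of liver, Abca12, a lipid transporter of skin, and Abcg5 with Abcg8, the sterol pump of gut and bile. All of these were absent from the counts of each library, whereas the 9 organelle and 4 cytosolic members all passed the filter.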

How the data were processed

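Gene counts were used as deposited: whole numbers per gene, not normalized. HTSeq 0.5.3, DESeq2 1.22.1 and build mm10 are named in the submitters' processing notes, with no role given; the aligner, annotation and strand setting are not given in the sources used here. Rows for reads given to no gene took 45.6%, 39.1% and 39.6% of the totals of libraries 1, 2 and 3 and were left out. Genes passed filterByExpr at a minimum count of 10, and edgeR 4.0.16 (R 4.3.3) gave TMM factors for the library sizes. CPM used these sizes, with a pseudocount of 1 on the log2 scale. TPM used the union of exons in GENCODE M21 (GRCm38, the same assembly as mm10), in which 98.9% of gene rows and all 50 members were found by identifier. Spread between libraries was tested by edgeR's goodness of fit at the trended dispersion, with Benjamini-Hochberg adjustment over 14409 genes. Run on simulated data, the test missed part of the genes that had been changed. The GC and length trends were splines with 5 degrees of freedom each, fitted per library and used as offsets, with differences on log2 CPM with 0.5 counts added. Reads were amplified and carry no molecular identifiers, so the limit of 3 counts covers counting error only. The kit does not mark strand, so a gene and its antisense partner cannot be told apart; exons of 12 members overlap another gene. RefSeq windows were found for 38 of 50 members. Members at a mean of at least 1 CPM, and transporters defining a barrier, bile or surfactant, were named, except 2 members past the filter that are not reported here or drawn, though counts, shares and medians over the family include them; members, lists and roles were chosen with earlier results of these data known. Alternatives were other size factors (DESeq2 1.42.0 or none), filters, dispersions and lengths, removal of trends, and leaving out each library.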

Additional observations from a re-analysis of the deposited data

Results flagged for a closer look

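Reads that the table gives to no gene were a signal outside the values used above, above the level of 3 counts. Alignment failed for 20.1%, 10.7% and 13.2% of reads in libraries 1, 2 and 3, and for 14.7% in the mean of the libraries. The part of this in the differences of library 1 was not tested. In the mean, a further 16.5% had several matches in the genome. Another 8.89% fell outside annotated genes, and 1.35% could not be given to a single gene. Reads of Abcb1a and Abcb1b from their shared stretches, and of Abcb6 from its overlap with Gm29253, could be among those with several matches or no single gene, which was not tested.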

How the results depend on the processing

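The count of members past the filter (35) was 35 to 42 under the other filters and when each library was left out. The count of members called variable stayed at 0 under all 10 alternatives, in which 0% to 1.13% of all genes tested were called; the 0% came from the tagwise dispersion. Without replicate 3, the mean CPM of Abca6 was 1.80 in place of 3.08 and that of Abca8b 13.5 in place of 21.5. These were the moves of over 1.5 times among the members reported at a mean of at least 1 CPM. Members below that level were not checked in this way. The family's share (0.188% of counts) was 0.0965% of TPM, in which its long transcripts weigh less. Without division by length, lipid transporters took 28.9%, drug and anion pumps 28.8%, channel subunits 1.04%, organelle transporters 21.3% and cytosolic proteins 20.0% of the family. With the longest transcript as length, organelle transporters took 27.3% and cytosolic proteins 30.0%. The median member level (4.85) was 4.34 with all members that had a count, which admits low genes, and 4.77 to 4.97 when each library was left out. No paired analysis was possible because all samples belong to 1 group. At these depths, a member with no count in a library could still have up to 3 counts.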
